A study of Mus musculus with 12 samples.

Results

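The thioredoxin, glutathione and antioxidant enzymes are 39 genes, taken by symbol from the 25124 genes listed in the expression table of mouse brown adipose tissue (BAT). All 39 were listed and all 39 passed the filter on low values in every comparison. They hold 5 genes of the thioredoxin system, 7 genes of the peroxiredoxins and their repair enzyme, 4 glutaredoxins, 5 glutathione peroxidases, 4 genes of glutathione synthesis and recycling, 5 glutathione transferases, 4 superoxide dismutase and catalase genes, and 5 genes of the *Nfe2l2* pathway and methionine repair. The study sequenced poly-A RNA of interscapular BAT from 12 male mice aged 10 weeks on a C57B/6J background, in 4 groups of 3. WT and *Txnip*-/- mice, which lack *Txnip* in the whole body, were kept for 1 week at room temperature (RT, 23 °C) or at thermoneutrality (TN, 30 °C). Levels are given as TPM, a share of all transcripts that takes the length of each into account, and libraries held between 29.93 and 47.44 (in units of 1e6 reads). The deletion is not restricted to BAT, so effects that begin in BAT and elsewhere cannot be told apart, and the libraries of a group measure only the spread between those 3 samples.

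Thioredoxins are small proteins that reduce disulfides in other proteins and are themselves reduced by thioredoxin reductases with NADPH. Peroxiredoxins use thioredoxin to remove hydrogen peroxide, whereas glutathione peroxidases and glutaredoxins draw on glutathione, which glutathione reductase recycles with NADPH. *Txnip* encodes a protein that binds reduced thioredoxin, so the question asked here is whether transcripts of the redox enzymes differ without it. Many of these enzymes have a cytosolic and a mitochondrial form encoded by separate nuclear genes, and brown adipocytes are rich in mitochondria. Protein locations were assigned from general knowledge of these enzymes, not from the data. They gave 19 cytosolic and 6 mitochondrial members, 5 members whose gene gives forms in more than 1 place, 4 of the endoplasmic reticulum, 2 secreted, 1 peroxisomal (*Cat*) and 2 regulators (*Nfe2l2* and *Keap1*).

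*Nfe2l2* encodes the transcription factor that drives many of these genes through the antioxidant response element, and *Keap1* encodes the protein that keeps it low. The core of that element, TGACNNNGC, was searched on both strands in RefSeq promoter windows (GRCm38.p6, 250 bases before to 50 after the start). A window was given for 32 members, and for *Prdx6*, *Gsr*, *Gclc*, *Gsta4*, *Hmox1*, *Sod3* and *Msra* none was used here. The core was found in 6 of the 32 members (18.8%), against 14.0% of all genes with a window. The matches are printed because the same 6 members are followed below. Each line runs 5′ to 3′ along the strand of the gene, which is the minus strand for *Nfe2l2* and the plus strand for the others, with 10 bases on either side, and the capitals mark the match:
*Gclm* (chr3:122245413-122245441): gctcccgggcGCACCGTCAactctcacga
*Nfe2l2* (chr2:75704885-75704913): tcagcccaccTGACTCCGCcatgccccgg
*Prdx1* (chr4:116685456-116685484): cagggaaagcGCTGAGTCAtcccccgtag
*Sod1* (chr16:90220696-90220724): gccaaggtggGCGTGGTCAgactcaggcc
*Srxn1* (chr2:152105542-152105570): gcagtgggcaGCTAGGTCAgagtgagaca
*Txnrd1* (chr10:82859104-82859132): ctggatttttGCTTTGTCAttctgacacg
None of these 6 members was called in any of the 4 comparisons described below or in the interaction, where 1.49% (genotype at RT), 8.66% (genotype at TN), 37.8% (temperature in WT), 39.2% (temperature in *Txnip*-/-) and 0.00801% (interaction) of all genes tested were. A match is a description of the letters and not evidence of binding.

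*Txnip* itself was first read as a check of the labels. At RT it stood at 564, 581 and 694 TPM in WT and at 24.8, 26.9 and 35.4 TPM in *Txnip*-/-, and at TN at 1238, 1083 and 1072 TPM in WT and 11.02, 14.4 and 10.52 TPM in *Txnip*-/-. Every library fitted its label, with log2 fold changes of −4.36 ± 0.14 at RT and −6.46 ± 0.12 at TN (SE), and a low level of *Txnip* reads remained in the *Txnip*-/- libraries. The brown adipocyte marker *Ucp1* was read in every library, from 154 TPM in a TN *Txnip*-/- library to 4366 TPM in an RT WT library, and the 10 brown adipocyte markers summed to 10020 to 10590 TPM in RT WT, 7545 to 9684 in RT *Txnip*-/-, 5760 to 6515 in TN WT and 2973 to 3552 in TN *Txnip*-/-. Markers of some other cell types differed between the groups. The 12 macrophage markers summed to 88.3 to 103 TPM in RT WT, 149 to 241 in RT *Txnip*-/-, 192 to 346 in TN WT and 573 to 828 in TN *Txnip*-/-, and at TN 11 of the 12 were called higher in *Txnip*-/-. The 7 fibroblast markers summed to 223 to 280, 274 to 333, 376 to 507 and 869 to 884 TPM in the same order, with 7 of 7 called higher in *Txnip*-/- at TN. The 8 skeletal muscle markers summed to 2.96 to 3.23 TPM in RT WT and 22.4 to 52.9 TPM in RT *Txnip*-/-, with 6 of the 6 tested called higher, and to 3.29 to 18.4 in TN WT and 4.24 to 18.4 in TN *Txnip*-/-. Replicate 2 of each TN group stood apart in these, with *Ckm*, the muscle creatine kinase, at 2.90 and 2.33 TPM against 0.144 to 0.18 in the other TN libraries. The 8 lymphocyte markers summed to 2.87 to 4.36, 3.87 to 5.30, 6.26 to 9.93 and 11.96 to 16.7 TPM in the order of groups given for the macrophages, with 2 of the 5 tested called higher in *Txnip*-/- at TN. The sums of the 8 general adipocyte markers overlapped between genotypes, at 22770 to 23640, 21910 to 25010, 19200 to 20990 and 19140 to 20960 TPM, with *Fabp4* the largest part. At TN 3 of the 8 (*Plin1*, *Cd36* and *Lpl*) lay lower in every *Txnip*-/- library and 0 lay higher, beside 13.4% and 17.7% of all genes. None of the 8 was called by genotype. The 7 endothelial markers summed to 262.5 to 275 and 221 to 261 TPM at RT, and 310 to 384 and 342 to 378 at TN, WT first. The 7 erythroid markers summed to 815 to 881 and 597 to 795 TPM at RT, and 658 to 1223 and 480.5 to 1472 at TN. Both sums were lower in every *Txnip*-/- library at RT and overlapped between genotypes at TN. None of these markers was at 0 throughout a group, and their part in the results below was not tested. In whole tissue, fewer cells of a type and less RNA per cell cannot be told apart.

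The share of redox transcripts that passed the test for a difference without *Txnip* was not below that of all genes at either temperature. A gene was called where it rose by over 25% or fell by over 20% and limma on log2(TPM + 1) gave it an adjusted p under 0.05, with the adjustment over all genes tested. At RT 1 of the 39 members was called (2.56%), and it was lower, beside 1.49% of the 11980 genes tested, of which 0.760% were called higher and 0.726% lower. An unadjusted p under 0.05 was reached by 11 members at RT (all genes, 16.0%) and by 14 at TN (all genes, 25.6%). At TN 5 were called (12.8%), 3 higher and 2 lower, beside 8.66% of the 12891 genes tested, of which 6.49% were called higher and 2.17% lower. The *Txnip*-/- and WT libraries did not overlap for 14 members at RT (35.9%, beside 22.6% of all genes) and for 18 members at TN (46.2%, beside 31.1%). At RT every *Txnip*-/- library was higher for 7 members and lower for 7, beside 15.1% and 7.58% of all genes, and at TN for 12 and 6, beside 17.7% and 13.4%. The median log2 fold change of the members was 0.01 at RT, where that of all genes was 0.03, and 0.01 at TN, where that of all genes was 0.01. No member was called at both temperatures. Summed over the 39 members, transcripts at RT came to 7629 ± 174 TPM in WT and 8323 ± 246 in *Txnip*-/-, and at TN to 8722 ± 197 and 10560 ± 895 (mean ± SD, n = 3), a sum in which *Gpx3* had the largest share. Fold changes below are *Txnip*-/- over WT unless another pair of groups is named.

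**Figure D1:**
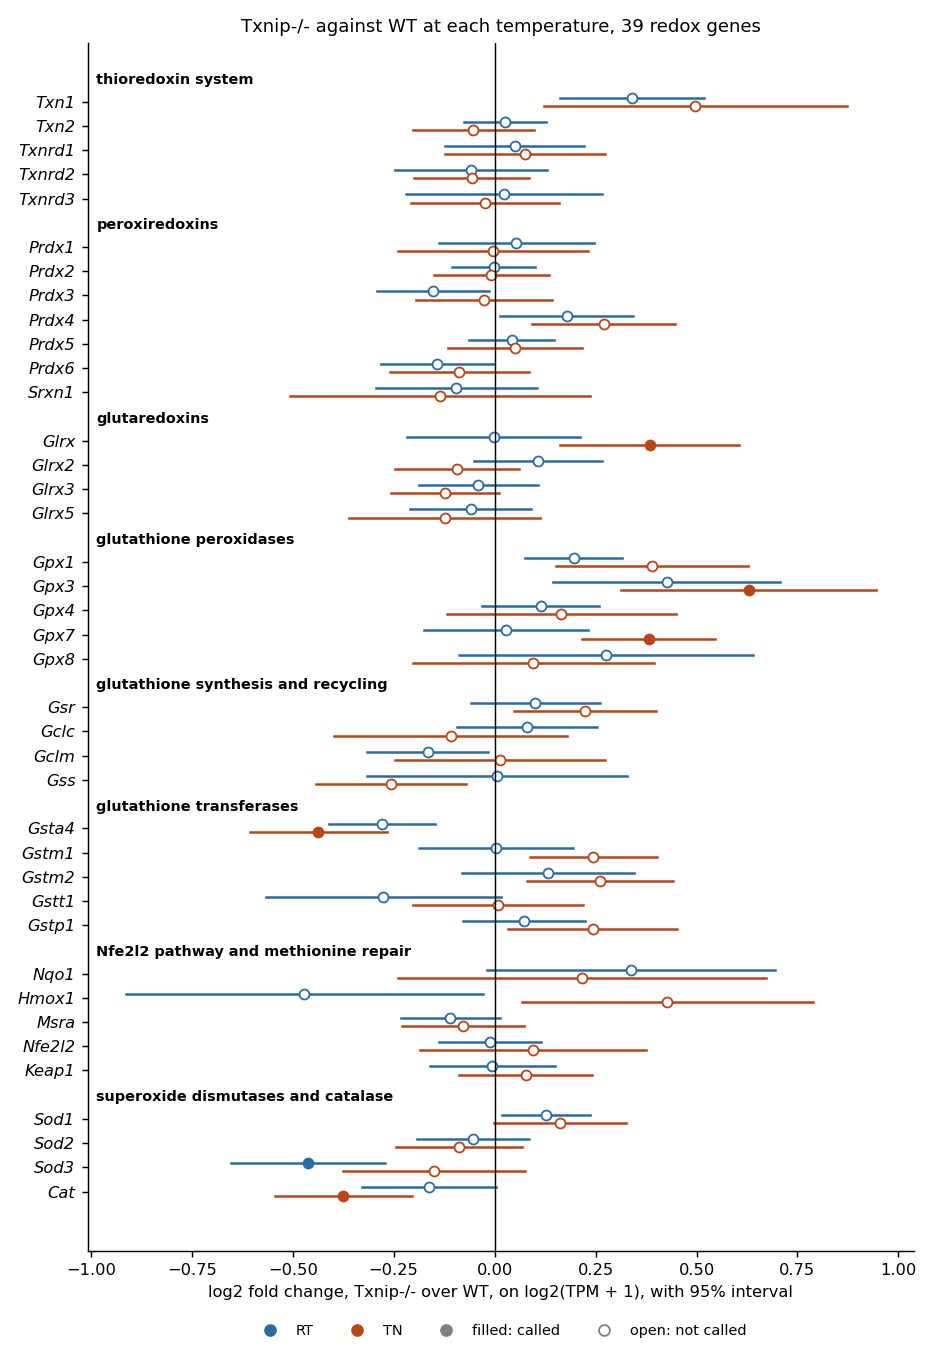
The log2 fold change of *Txnip*-/- over WT (x axis, on log2(TPM + 1)) of each of the 39 members, at RT in blue and at TN in orange, with the 95% interval from limma, grouped by role. Filled points are the members called, *Sod3* at RT and *Glrx*, *Gpx3*, *Gpx7*, *Gsta4* and *Cat* at TN, and the 5 glutathione peroxidases lie right of 0 at both temperatures.

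In the thioredoxin system, the cytosolic thioredoxin had higher values in *Txnip*-/- at both temperatures without passing the test, and the other 4 genes had log2 fold changes within 0.08 of 0. *Txn1*, the cytosolic thioredoxin, stood at 182, 196 and 178 TPM in RT WT, 260, 223 and 222 in RT *Txnip*-/-, 185, 258 and 250 in TN WT, and 315, 391 and 273 in TN *Txnip*-/-. Every *Txnip*-/- library lay above every WT library of its temperature, although at TN the lowest of one group and the highest of the other were 273 and 258 TPM. Its log2 fold change was 0.34 ± 0.08 (SE) at RT, with a 95% interval of 0.16 to 0.52 (limma adjusted p = 0.0846), and 0.50 ± 0.16 at TN, with an interval of 0.12 to 0.87 (adjusted p = 0.1). It missed the threshold in both comparisons. With the spread estimated from all 12 libraries it passed at TN (limma adjusted p = 0.0423) and not at RT (adjusted p = 0.239). Over the alternative settings at TN its adjusted p ranged from 0.0423 to 0.261.

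The mitochondrial thioredoxin differed little between the groups. *Txn2* stood at 285, 285 and 287 TPM in RT WT, 289, 290 and 293 in RT *Txnip*-/-, 283, 269 and 296 in TN WT, and 274, 277 and 266 in TN *Txnip*-/-. Its log2 fold change was 0.02 (95% interval −0.08 to 0.13, adjusted p = 0.834) at RT and −0.05 (−0.20 to 0.10, adjusted p = 0.675) at TN, with the intervals bounding the difference at either temperature. The sign at RT turned negative with the authors' log-scale values and with median centring. The groups at TN overlapped.

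The reductases, which pass electrons from NADPH to thioredoxin, were likewise close to WT. *Txnrd1*, the cytosolic form, stood at 41.6, 45.7 and 46.1 TPM in RT WT, 49.6, 45.4 and 43.2 in RT *Txnip*-/-, 46.3, 52.1 and 46.3 in TN WT, and 49.2, 56.2 and 47.3 in TN *Txnip*-/-. *Txnrd2*, the mitochondrial form, stood at 55.9, 53.3 and 63.4 TPM in RT WT, 52.8, 54.0 and 58.6 in RT *Txnip*-/-, 58.6, 58.9 and 54.3 in TN WT, and 54.9, 55.2 and 54.9 in TN *Txnip*-/-. The groups overlapped at both temperatures for both genes. The log2 fold changes of *Txnrd1* were 0.05 (95% interval −0.12 to 0.22, adjusted p = 0.793) and 0.08 (−0.12 to 0.27, 0.645) at RT and TN. Those of *Txnrd2* were −0.06 (−0.25 to 0.13, 0.774) and −0.06 (−0.20 to 0.08, 0.624). *Txnrd3*, a form that carries an extra glutaredoxin domain, stood at 12.4 ± 1.6 TPM in RT WT and 12.5 ± 0.7 in RT *Txnip*-/-, and at 15.4 ± 1.4 and 15.1 ± 0.3 at TN. The strand setting of the counting is not given in the sources used here. Exons on the opposite strand overlap those of *Prdx2*, *Prdx5*, *Gclm* and *Keap1*, so that reads of these genes and their partners may not be told apart.

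None of the 7 peroxiredoxin-group genes was called by genotype. *Prdx1*, the main cytosolic peroxiredoxin, stood at 225, 230 and 254 TPM in RT WT, 242, 270 and 225 in RT *Txnip*-/-, 220, 287 and 276 in TN WT, and 257, 263 and 256 in TN *Txnip*-/-, with overlap at both temperatures (log2 fold change 0.05, 95% interval −0.14 to 0.25, and −0.004, −0.24 to 0.23). *Prdx3*, the mitochondrial peroxiredoxin, stood at 380, 349 and 379 TPM in RT WT and 315, 336 and 344 in RT *Txnip*-/-, where the groups lay apart, and at 318, 317 and 309 in TN WT and 289, 334 and 304 in TN *Txnip*-/-, where they overlapped. Its log2 fold change was −0.15 (95% interval −0.29 to −0.01, adjusted p = 0.264) at RT and −0.03 (−0.20 to 0.14, adjusted p = 0.865) at TN. *Prdx2* was the steadiest member at RT, at 194, 194 and 193 TPM in RT WT and 193, 194 and 194 TPM in RT *Txnip*-/-. *Prdx4*, the peroxiredoxin of the endoplasmic reticulum, lay above WT in every *Txnip*-/- library, at 16.5 ± 1.0 against 18.8 ± 0.7 TPM at RT and 23.6 ± 0.3 against 28.7 ± 2.6 TPM at TN, and was not called (adjusted p = 0.274 and 0.0664). *Srxn1* encodes sulfiredoxin, which repairs overoxidised peroxiredoxins, and had log2 fold changes of −0.095 and −0.14.

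Of the glutaredoxins, which reduce mixed disulfides with glutathione, the cytosolic form was called at TN. *Glrx* stood at 11.4, 11.8 and 10.1 TPM in RT WT, 10.3, 10.8 and 12.1 in RT *Txnip*-/-, 7.16, 6.64 and 7.74 in TN WT, and 10.3, 10.3 and 8.501 in TN *Txnip*-/-. The groups overlapped at RT and lay apart at TN, where the TN *Txnip*-/- values came near those of the RT groups. The log2 fold change was −0.002 (95% interval −0.22 to 0.21, adjusted p = 0.995) at RT and 0.38 ± 0.10 (0.16 to 0.61, adjusted p = 0.0456) at TN. *Glrx2*, the mitochondrial form, stood at 13.5, 13.0 and 12.7 TPM in RT WT, 13.6, 14.0 and 14.8 in RT *Txnip*-/-, 12.1, 12.2 and 12.9 in TN WT, and 11.1, 11.7 and 11.8 in TN *Txnip*-/-. Every *Txnip*-/- library lay above WT at RT and below it at TN, by a log2 fold change of 0.11 and −0.09, with neither passing the test (adjusted p = 0.501 and 0.438). *Glrx3* and *Glrx5*, which serve iron-sulfur proteins, had log2 fold changes of −0.04 and −0.06 at RT and −0.12 and −0.12 at TN. The *Glrx3* transcript shares 38.3% of its read-length windows with *Gm12669*.

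The glutathione peroxidases had the highest median log2 fold change of the 8 role groups at both temperatures. All 5 had a positive log2 fold change at both temperatures, where 7089 of the 11980 genes tested at RT and 6685 of the 12891 tested at TN did, with a median of 0.20 at RT and 0.38 at TN. Of the 5, 2 were called, both higher at TN, beside 6.49% of all genes. Summed over the 5, they came at RT to 3236 TPM in WT and 3950 in *Txnip*-/-, and at TN to 4334 and 6073. *Gpx3*, the secreted plasma form, was the most abundant of all 39 members, at 1380, 1738 and 1422 TPM in RT WT, 2355, 1855 and 1893 in RT *Txnip*-/-, 2874, 2331 and 2623 in TN WT, and 4511, 4322 and 3339 in TN *Txnip*-/-. Every *Txnip*-/- library lay above WT at either temperature. Its log2 fold change was 0.43 ± 0.12 (95% interval 0.14 to 0.71, adjusted p = 0.148) at RT and 0.63 ± 0.14 (0.31 to 0.94, adjusted p = 0.0290) at TN, where the mean was 4057 ± 629 against 2609 ± 272 TPM.

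*Gpx7*, a peroxidase of the endoplasmic reticulum, was low, and its groups lay apart at TN. It stood at 5.54, 4.93 and 4.996 TPM in RT WT, 5.60, 5.28 and 4.95 in RT *Txnip*-/-, 6.32, 6.73 and 6.19 in TN WT, and 8.47, 8.84 and 8.64 in TN *Txnip*-/-. The RT groups overlapped (log2 fold change 0.03, 95% interval −0.17 to 0.23, adjusted p = 0.914), and the TN groups did not (0.38 ± 0.07, 0.22 to 0.55, adjusted p = 0.0177). *Gpx1*, the ubiquitous form, stood at 459, 464 and 465 TPM in RT WT, 557, 511 and 524 in RT *Txnip*-/-, 421, 473 and 495 in TN WT, and 586, 686 and 551 in TN *Txnip*-/-. It lay apart at both temperatures and missed the threshold at each (0.20, adjusted p = 0.126, and 0.39, adjusted p = 0.0540). *Gpx4*, which reduces lipid hydroperoxides, had log2 fold changes of 0.11 and 0.17, and *Gpx8*, of the endoplasmic reticulum, 0.28 and 0.10, none called. A share of 55.3% of the read-length windows of the *Gpx4* transcript also occurs in 2 other genes, 1 of them *Gpx4-ps2*, so its counts could be split.

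In glutathione synthesis and recycling, no genotype difference was called. *Gclc* and *Gclm*, the subunits of the rate-limiting ligase, had log2 fold changes of 0.08 and −0.17 at RT and −0.11 and 0.01 at TN. *Gss*, the synthetase, had 0.01 at RT and −0.26 at TN, where every *Txnip*-/- library lay below WT (adjusted p = 0.0905). *Gsr*, which recycles oxidised glutathione, had 0.10 and 0.22, the latter with every *Txnip*-/- library above WT (adjusted p = 0.110).

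Among the glutathione transferases, 1 gene, *Gsta4*, was called by genotype, at TN. *Gsta4*, which conjugates the lipid peroxidation product 4-hydroxynonenal, stood at 87.1, 91.7 and 92.7 TPM in RT WT, 71.1, 75.6 and 76.4 in RT *Txnip*-/-, 87.7, 101 and 87.8 in TN WT, and 67.9, 68.0 and 67.4 in TN *Txnip*-/-. The 6 *Txnip*-/- libraries all lay below the 6 WT libraries. The log2 fold change was −0.28 ± 0.06 (95% interval −0.41 to −0.15, adjusted p = 0.0650) at RT and −0.44 ± 0.07 (−0.61 to −0.27, adjusted p = 0.0128) at TN. *Gstm1*, *Gstm2* and *Gstp1*, of the mu and pi classes, had log2 fold changes of 0.24, 0.26 and 0.24 at TN (adjusted p = 0.0636, 0.0784 and 0.138) and 0.00, 0.13 and 0.07 at RT. *Gstp1* shares 57.7% and *Gstm1* 14.8% of its read-length windows with other genes, so the split of their counts is uncertain.

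*Sod3* and *Cat* were the remaining calls, both lower in *Txnip*-/-. *Sod3*, the extracellular superoxide dismutase, stood at 138, 135 and 139 TPM in RT WT, 87.8, 103 and 108 in RT *Txnip*-/-, 117, 105 and 101 in TN WT, and 91.9, 110 and 89.4 in TN *Txnip*-/-. The RT groups lay apart and the TN groups overlapped. Its log2 fold change was −0.46 ± 0.08 (95% interval −0.65 to −0.27, adjusted p = 0.0472) at RT and −0.15 ± 0.10 (−0.38 to 0.07, adjusted p = 0.393) at TN. *Cat*, catalase, the peroxisomal enzyme that breaks down hydrogen peroxide, stood at 389, 389 and 391 TPM in RT WT, 313, 370 and 363 in RT *Txnip*-/-, 307, 343 and 300 in TN WT, and 239, 241 and 252 in TN *Txnip*-/-. All *Txnip*-/- libraries lay below the WT libraries of their temperature, with a log2 fold change of −0.16 ± 0.07 (−0.33 to 0.00, adjusted p = 0.320) at RT and −0.37 ± 0.07 (−0.54 to −0.21, adjusted p = 0.0209) at TN.

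**Figure D2:**
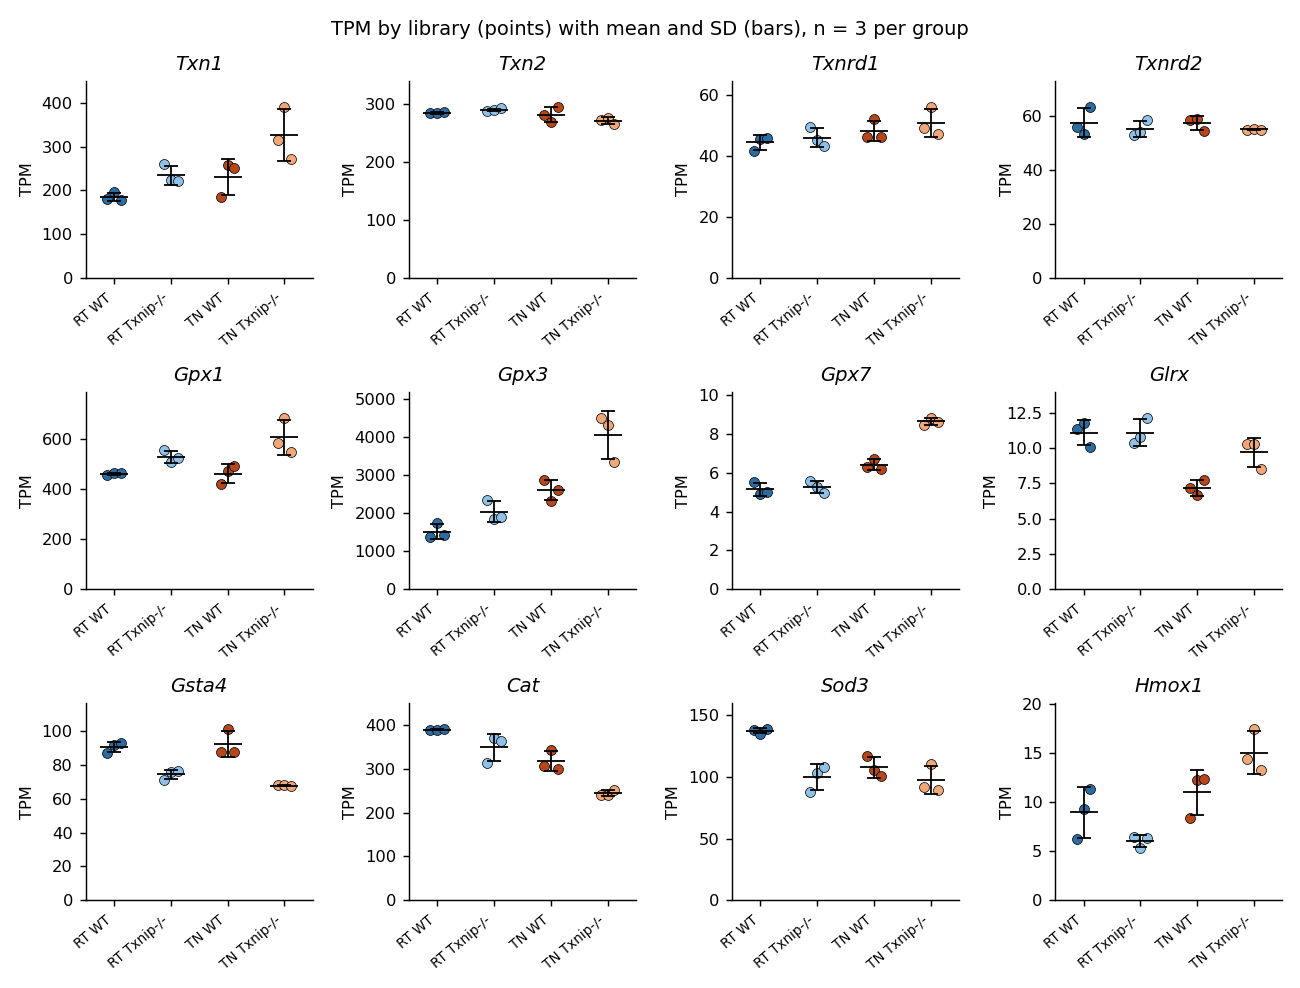
TPM (y axes, from 0) of 12 members in each library (points), with the mean and SD of the 3 libraries of a group (bars). *Txn2*, *Txnrd1* and *Txnrd2* lie nearly level over the 4 groups, *Gpx3* and *Gpx7* are highest in TN *Txnip*-/-, and *Gsta4* and *Cat* are lowest there.

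The intracellular dismutases were not called. *Sod1*, the cytosolic form, stood at 729, 759 and 759 TPM in RT WT, 810, 836 and 807 in RT *Txnip*-/-, 671, 742 and 724 in TN WT, and 811, 795 and 784 in TN *Txnip*-/-. *Sod2*, the mitochondrial form, stood at 262, 261 and 274 TPM in RT WT, 244, 274 and 251 in RT *Txnip*-/-, 250, 224 and 226 in TN WT, and 220, 219 and 220 in TN *Txnip*-/-. The *Sod1* transcript shares 12.2% of its read-length windows with *Gm8566*. *Sod1* lay above WT in every *Txnip*-/- library (log2 fold change 0.13, adjusted p = 0.244, and 0.16, adjusted p = 0.197). *Sod2* overlapped at RT (−0.05, adjusted p = 0.709) and lay below WT in every library at TN (−0.09, adjusted p = 0.478).

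*Nfe2l2* and *Keap1* kept within 0.10 of 0 on the log2 scale in both comparisons, at 43.4 to 46.6 and 28.4 to 30.0 TPM on average over the 4 groups. *Hmox1*, heme oxygenase and a target of this pathway, stood at 6.23, 9.34 and 11.3 TPM in RT WT, 6.42, 5.34 and 6.35 in RT *Txnip*-/-, 8.38, 12.3 and 12.4 in TN WT, and 14.5, 17.5 and 13.3 in TN *Txnip*-/-. Its groups overlapped at RT, with a log2 fold change of −0.47, and lay apart at TN, with 0.43, neither called (adjusted p = 0.280 and 0.132). *Nqo1*, a quinone reductase and the least abundant member in RT WT, stood at 1.42, 1.27 and 0.745 TPM in RT WT, 1.41, 1.78 and 1.88 in RT *Txnip*-/-, 2.41, 5.20 and 3.18 in TN WT, and 3.93, 4.42 and 4.19 in TN *Txnip*-/-, with overlap at both temperatures. *Msra*, which repairs oxidised methionine, had log2 fold changes of −0.11 and −0.08.

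None of the members was called for the interaction of genotype and temperature, beside 0.00801% of the 12486 genes tested, and 6 had an unadjusted p under 0.05 (all genes, 12.6%). The largest interaction was that of *Hmox1* (0.90 ± 0.27, limma adjusted p = 0.233), followed by *Glrx* (0.39, adjusted p = 0.283) and *Gpx7* (0.35, adjusted p = 0.211). So the genotype calls at TN were not shown to differ from the values at RT.

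The calls depended on the settings and libraries used. The *Sod3* call at RT was lost in 11 of 15 alternative settings, including every one that left out a library, and its adjusted p ranged from 0.0302 to 0.164 over them. At TN the 5 calls became 0 without TN *Txnip*-/- replicate 1, 1 without replicate 2 of that group, 2 without TN WT replicate 2 and 2 without TN WT replicate 3, and 7 with all 12 libraries in 1 fit. The share of all genes called at TN fell as well, from 8.66% to 3.55% and 3.6% without *Txnip*-/- replicates 1 and 2. It was 9.07% with all 12 libraries in 1 fit. *Gsta4* at TN lost its call in 1 alternative, *Gpx7* in 4, *Cat* in 5, *Gpx3* in 7 and *Glrx* in 9, with no change of direction.

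Cytosolic and mitochondrial members were then set side by side. At RT the median log2 fold change was 0.01 over the 19 cytosolic and −0.06 over the 6 mitochondrial members, a difference of −0.06, and at TN it was 0.01 and −0.07, a difference of −0.08. The difference at RT was 0.019 when members with forms in more than 1 place were counted as mitochondrial, and it ranged from −0.10 without RT *Txnip*-/- replicate 2 to −0.005 without RT WT replicate 3. The difference at TN ranged from −0.16 without TN WT replicate 2 to −0.04 without TN WT replicate 1. At TN all 6 mitochondrial members had a negative sign, from −0.12 to −0.03, none called, and 10 of the 19 cytosolic members had a positive sign. The 20 general mitochondrial genes kept for reference (import, chaperone and carrier genes) had a median of −0.04 at RT and −0.20 at TN, where 18 of 20 were negative and *Tomm40* and *Timm44*, both of protein import, were called lower (2 of 20, beside 2.17% of all genes). The mean log2(TPM + 1) of the mitochondrial members stood above that of the cytosolic members by 1.42 ± 0.06 in WT and 1.37 ± 0.05 in *Txnip*-/- at RT, and by 1.03 ± 0.14 and 0.91 ± 0.02 at TN (SD, n = 3). These ranges overlapped between genotypes at each temperature, and did not overlap between temperatures.

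Within pairs, the thioredoxins and the dismutases lay apart between genotypes at both temperatures. The ratio of *Txn2* to *Txn1* TPM was 1.55 ± 0.08 in WT and 1.24 ± 0.11 in *Txnip*-/- at RT, and 1.253 ± 0.251 and 0.851 ± 0.135 at TN, and the genotypes did not overlap at either temperature. TN *Txnip*-/- was the only group in which the cytosolic transcript exceeded the mitochondrial one in every library, with ratios of 0.708 to 0.9747. The ratio of *Sod2* to *Sod1* stood at 0.355 ± 0.009, 0.313 ± 0.013, 0.329 ± 0.039 and 0.276 ± 0.005 in the same order of groups, also without overlap between genotypes. The ratio of *Glrx2* to *Glrx* was 1.179 ± 0.077, 1.28 ± 0.05, 1.73 ± 0.09 and 1.202 ± 0.164 in that order, with TN WT apart from all other groups. The ratios of *Prdx3* to *Prdx1* (1.57 ± 0.11, 1.36 ± 0.15, 1.22 ± 0.19 and 1.19 ± 0.07) and of *Txnrd2* to *Txnrd1* (1.296 ± 0.113, 1.203 ± 0.146, 1.19 ± 0.07 and 1.09 ± 0.09) overlapped between genotypes at both temperatures. These ratios were not tested.

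**Figure D3:**
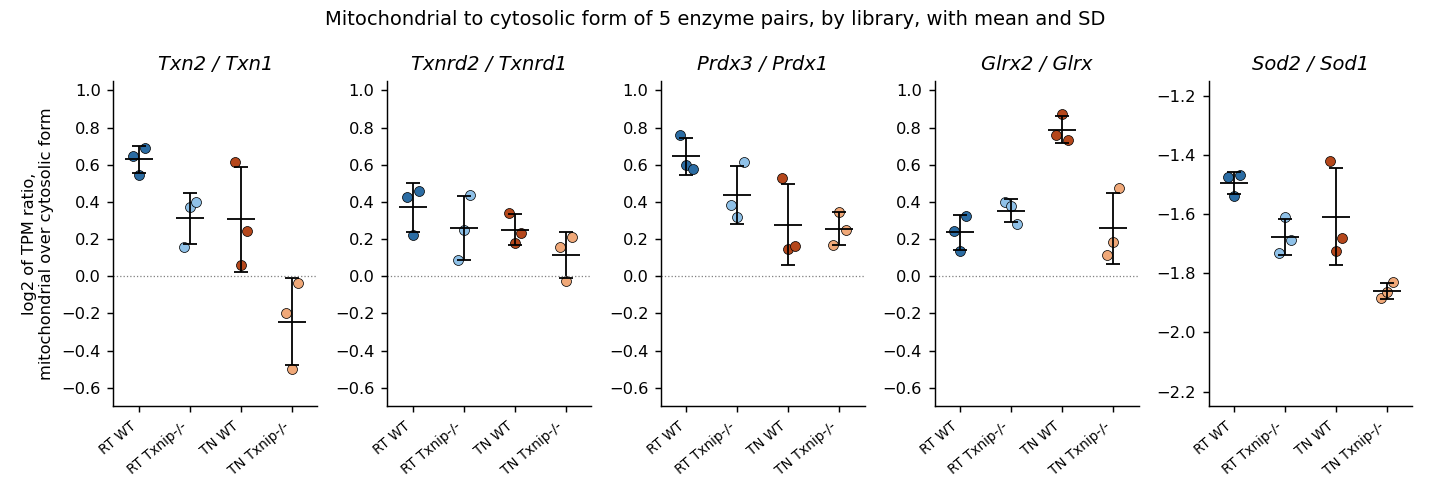
Log2 of the TPM ratio of the mitochondrial to the cytosolic form of 5 enzyme pairs (y axes) in each library (points) of the 4 groups, with mean and SD (bars); the *Sod2*/*Sod1* panel has its own y range of the same kind. For *Txn2*/*Txn1* the 3 TN *Txnip*-/- libraries lie below 0 and all other libraries above it.

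The members were next compared between temperatures within each genotype, in a fit of all 12 libraries. In that fit the genotype comparisons gave 1 called member at RT and 7 at TN, beside 2.18% and 9.07% of all genes. In WT 11 of the 39 members were called between TN and RT (28.2%, 7 higher and 4 lower), beside 37.8% of all genes (31.4% higher, 6.39% lower), and in *Txnip*-/- 13 (33.3%, 10 higher and 3 lower), beside 39.2% (30.9% and 8.27%). The groups did not overlap for 20 members in WT (51.3%, beside 57.5%) and 28 in *Txnip*-/- (71.8%, beside 61.1%). Every TN library was higher for 12 members and lower for 8 in WT, beside 45.5% and 12% of all genes, and for 18 and 10 in *Txnip*-/-, beside 44.1% and 16.9%. An unadjusted p under 0.05 was reached by 20 and 22 members, beside 56.9% and 57.5% of all genes. The median of all genes was itself shifted, by 0.18 in WT and 0.15 in *Txnip*-/- on the log2 scale, and the members had medians of 0.09 and 0.12. The balance of higher and lower calls moved with the scaling. With median centring, WT had 5 members higher and 8 lower (all genes, 15.4% and 14.7%) and *Txnip*-/- had 9 and 6 (18.4% and 19.5%), and with upper-quartile normalization WT had 7 and 6 (23% and 9.65%) and *Txnip*-/- 10 and 4 (25.7% and 11.7%). RT and TN libraries carry different numbers, so temperature and any difference in collection cannot be told apart, and markers of several cell types moved with temperature. In WT 11 of 12 macrophage, 7 of 7 fibroblast, 3 of 7 endothelial and 2 of 3 lymphocyte markers tested were called higher at TN, as were 12, 7, 6 and 3 in *Txnip*-/-. Of the 10 brown adipocyte markers 4 were called lower and 2 higher in WT, and 6 and 2 in *Txnip*-/-. Of the 6 skeletal muscle markers tested 0 were called in WT and 6 were called lower in *Txnip*-/-. Of the 8 adipocyte markers 2 were called lower in each genotype, with 1 higher in WT, and 0 of the 5 erythroid markers tested were called in either. For both counts of 0, limma also gave 0 at an unadjusted p under 0.05. Their part in the results was not tested.

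The glutathione transferases *Gstm2*, *Gstm1* and *Gstt1* rose at TN in either genotype. The log2 fold change of TN over RT was 0.79 ± 0.09 in WT and 0.92 ± 0.09 in *Txnip*-/- for *Gstm2* (adjusted p = 9.6e-05 and 1.84e-05), 0.46 ± 0.07 and 0.71 ± 0.07 for *Gstm1* (adjusted p = 0.000612 and 3.2e-05), and 0.55 ± 0.12 and 0.83 ± 0.12 for *Gstt1* (adjusted p = 0.00267 and 0.000158). With median centring the *Gstm1* call in WT was lost on its fold (0.28, adjusted p = 0.0102). *Gstt1*, of the theta class, stood at 27.0, 24.1 and 21.9 TPM in RT WT, 38.3, 36.0 and 33.6 in TN WT, 20.6, 16.7 and 22.7 in RT *Txnip*-/-, and 36.3, 32.4 and 40.1 in TN *Txnip*-/-. In TPM, *Gstm2* stood at 39.3, 39.9 and 42.5 in RT WT, 66.9, 77.4 and 68.7 in TN WT, 46.7, 38.9 and 48.5 in RT *Txnip*-/-, and 88.5, 87.3 and 80.0 in TN *Txnip*-/-, so that for *Gstm2* and *Gstt1* every TN library exceeded every RT library. *Gss* rose as well, from 22.8, 23.4 and 16.8 TPM in RT WT to 33.6, 37.1 and 39.2 in TN WT (0.79 ± 0.12, adjusted p = 0.000445) and from 20.9, 18.7 and 23.2 in RT *Txnip*-/- to 29.2, 32.8 and 29.5 in TN *Txnip*-/- (0.53 ± 0.12, adjusted p = 0.00345). Exons of *Gss* overlap those of *Acss2* and 2 antisense genes on the other strand.

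*Gpx3*, *Nqo1* and *Prdx4* also rose in both genotypes. Their log2 fold changes were 0.79 ± 0.14, 1.07 ± 0.19 and 0.49 ± 0.07 in WT (adjusted p = 0.000956, 0.00108 and 0.000316) and 0.99 ± 0.14, 0.95 ± 0.19 and 0.58 ± 0.07 in *Txnip*-/- (adjusted p = 0.000159, 0.00168 and 6.49e-05). The *Prdx4* call in WT was lost on its fold with median centring (0.31, adjusted p = 0.00598). *Hmox1* (1.19 ± 0.19, adjusted p = 0.000404), *Gpx7* (0.62 ± 0.07, adjusted p = 5.03e-05) and *Txn1* (0.46 ± 0.14, adjusted p = 0.0174) were called higher at TN in *Txnip*-/-. In WT the same 3 genes had 0.29, 0.27 and 0.30 (adjusted p = 0.229, 0.00868 and 0.0931) and were not called, *Gpx7* only because its fold of 1.205 was under the threshold, and none of the 3 differences passed the interaction test. The *Txn1* call was lost with median centring (adjusted p = 0.121) and without RT *Txnip*-/- replicate 2, RT *Txnip*-/- replicate 3 or TN *Txnip*-/- replicate 2.

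*Gpx8* fell the most at TN. It stood at 135, 184 and 159 TPM in RT WT and 82.7, 74.7 and 79.5 in TN WT (−0.996 ± 0.158, adjusted p = 0.000562), and at 168, 238 and 177 TPM in RT *Txnip*-/- and 70.5, 104 and 82.3 in TN *Txnip*-/- (−1.18 ± 0.16, adjusted p = 0.000126). *Gpx8* and *Gpx7*, related peroxidases of the endoplasmic reticulum, thus had opposite signs with temperature in both genotypes, with every TN library apart from every RT library of the genotype. *Glrx5*, a mitochondrial glutaredoxin of iron-sulfur cluster assembly, fell in both genotypes, from 203, 199 and 182 to 158, 143 and 166 TPM in WT (−0.32 ± 0.09, adjusted p = 0.0116, with a fold of 0.7997 at the edge of the threshold) and from 180, 183 and 198 to 130, 164 and 136 TPM in *Txnip*-/- (−0.39 ± 0.09, adjusted p = 0.00402). Its call in WT was lost without RT WT replicate 1 (−0.29), RT WT replicate 2 (−0.31) or TN WT replicate 2 (−0.26, adjusted p = 0.0527), and that in *Txnip*-/- without TN *Txnip*-/- replicate 1 (−0.32). *Glrx* (−0.56 ± 0.09, adjusted p = 0.000768) and *Sod3* (−0.35 ± 0.09, adjusted p = 0.00993) fell in WT, with −0.18 and −0.04 in *Txnip*-/- (adjusted p = 0.136 and 0.753), and the *Sod3* call was lost without TN WT replicate 3 (−0.30). *Cat* fell in *Txnip*-/- (−0.51 ± 0.07, adjusted p = 0.000169), and in WT it had −0.30 (adjusted p = 0.00529) with every TN library lower, and missed the call on its fold of 0.813. None of these 3 genes passed the interaction test (adjusted p = 0.283, 0.366 and 0.416).

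**Figure D4:**
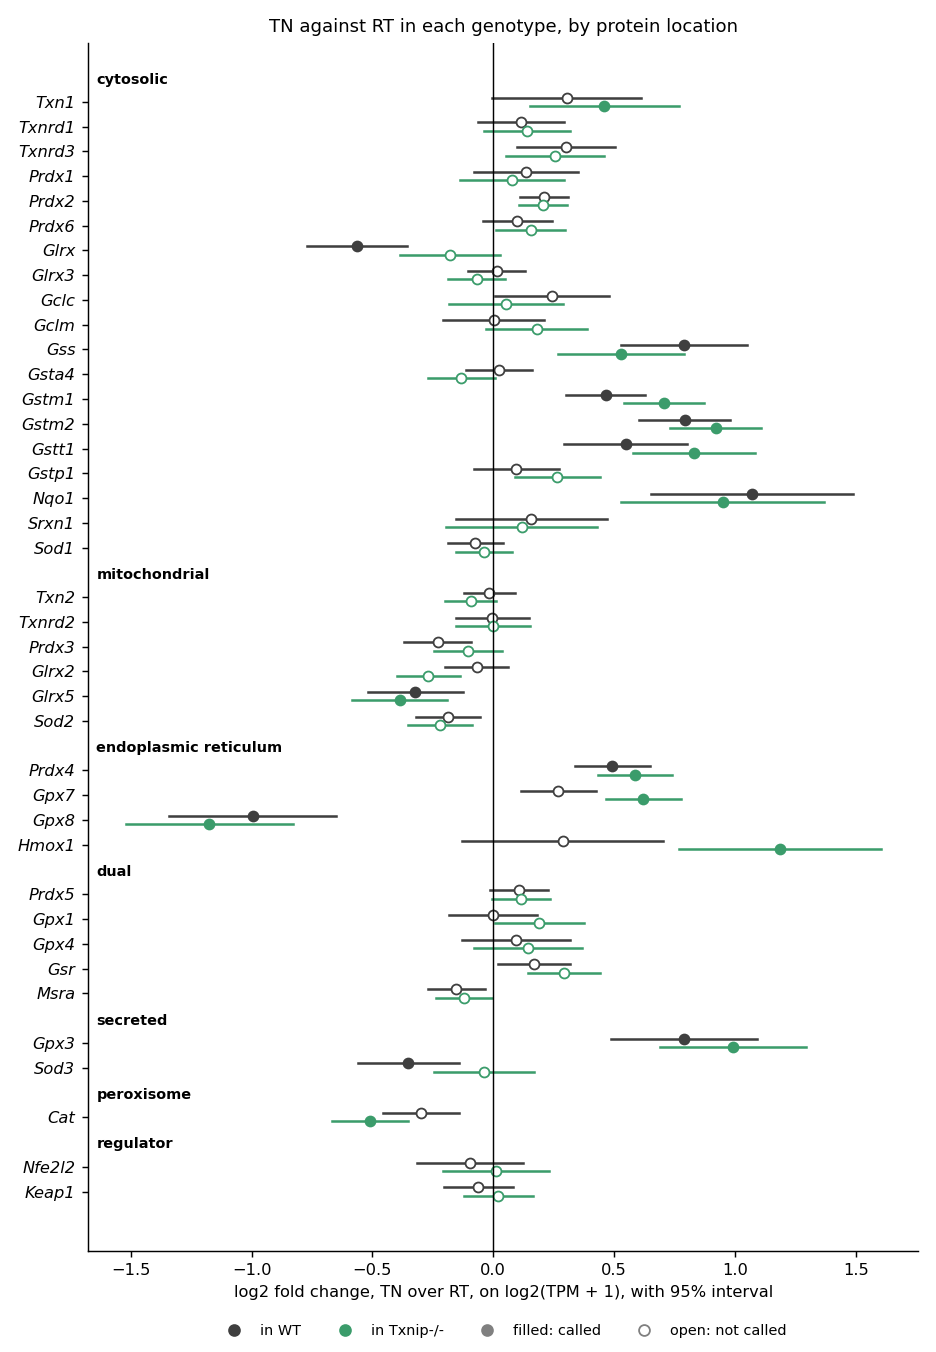
The log2 fold change of TN over RT (x axis, on log2(TPM + 1)) of the 39 members, in WT in dark grey and in *Txnip*-/- in green, with the 95% interval from limma, grouped by protein location. Filled points are called; the 6 mitochondrial members lie at or left of 0 in both genotypes, while the median of all genes lay at 0.18 and 0.15.

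By location, the mitochondrial members had a median log2 fold change of TN over RT of −0.13 in WT and −0.16 in *Txnip*-/-, with 6 of 6 negative in each and only *Glrx5* called. Others missed the call only on their fold. These were *Prdx3* and *Sod2* in WT (limma adjusted p = 0.0113 and 0.0223) and *Glrx2* and *Sod2* in *Txnip*-/- (adjusted p = 0.00295 and 0.00954). The cytosolic members had 0.16 and 0.18, with 17 and 15 of 19 positive, near the medians of all genes (0.18 and 0.15). The difference between the 2 sets of members was −0.29 in WT and −0.34 in *Txnip*-/-. In WT it was smaller in size when members with forms in several places were counted as mitochondrial, with the value given below. With each library left out it ran from −0.40 to −0.24 in WT. The general mitochondrial genes had medians of −0.08 and −0.26, with 0 and 7 of 20 called lower, beside 6.39% and 8.27% of all genes.

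Other genes of these pathways were counted from lists of 108 genes. Of the 97 tested at RT, 6 were called by genotype (6.19%, 2 higher and 4 lower), beside 1.49% of all genes (0.760% higher, 0.726% lower). Of the 98 tested at TN, 12 were (12.2%, 6 and 6), beside 8.66% (6.49% and 2.17%), and the counts by list below are to be read against the same shares. Among 23 thioredoxin-like and methionine repair genes 0 were called at RT (3 at an unadjusted p under 0.05) and at TN 1 was, *Msrb2*, a mitochondrial methionine sulfoxide reductase (−0.71). Among 31 tested genes of glutathione transfer and turnover, *Gstz1* (−0.75), *Oplah* (−0.44) and *Gstk1* (−0.41) were lower and *Anpep*, a peptidase, higher (0.55) at RT. At TN *Gstz1* (−0.63) was lower, and *Anpep* (1.09), *Dpep1* (0.72) and *Ggt5* (0.38), of which *Dpep1* and *Ggt5* act on glutathione or its conjugates at the cell surface, were higher. The genes of NADPH supply were called only downward, *Aldh1l1* at RT (−1.34) and *Aldh1l1* (−1.06), *Nnt* (−0.80) and *Idh2* (−0.37) at TN. *Nnt*, the mitochondrial transhydrogenase, was at 5.11, 3.78 and 2.95 TPM in TN WT and 1.60, 1.61 and 2.23 in TN *Txnip*-/-, and C57BL/6J mice are known for a deletion in this gene. Of 26 tested partners and further targets of *Nfe2l2*, *Ephx1* was higher at RT (0.70), and at TN *Ephx1* (0.79), *Maff* (0.75) and *Fth1* (0.54) were higher and *Nqo2* lower (−0.38).

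The redox transcripts had a lower median spread between libraries than all genes, which were not matched to them in level. The median coefficient of variation of the 39 members was 5.02% in WT and 5.04% in *Txnip*-/- at RT, and 7.28% and 6.0% at TN, where the median of all genes was 8.88%, 8.57%, 8.56% and 7.63%. *Prdx2* varied least, by 0.27%, 0.26% and 0.34% in the first 3 of these groups, and *Nqo1*, the least abundant member, by 30.8% and 40.1% in RT WT and TN WT. In RT WT the order of levels ran from *Gpx3* (1513 ± 196 TPM), *Gpx4* (1096 ± 64) and *Sod1* (749 ± 17) to *Gpx1* (463 ± 4), *Prdx5* (457 ± 10) and *Cat* (389 ± 1), of which *Gpx1* and *Prdx5* lay within their spread of each other.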

How the data were processed

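RNA-seq libraries of interscapular BAT, 3 in each of 4 groups, were re-analysed, with groups taken from the sample labels. The authors aligned reads to mm10 with STAR 2.7.5a and counted reads on exons with HOMER 4.11.1, keeping 1 transcript per gene. The authors deposited 1 table of TPM, on which the results rest, and the genes in it add up to 55.38% to 57.55% of the scaling total. The authors also deposited log2 values for each temperature, used as an alternative, and for 12 members these describe another transcript than the TPM. The deposited log2 fold changes, p-values and adjusted p-values of the authors' DESeq2 comparison were not used, nor were transcript lengths.

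Where the mean TPM in a comparison was 1 or more, a gene was tested on log2(TPM + 1) in R 4.3.3 with limma 3.58.1 (empirical Bayes with a trend, Benjamini-Hochberg over all genes tested). Genotypes were compared on the 6 libraries of each temperature. The interaction and TN against RT used all 12 libraries with 4 group means. Fold changes are on the log2(TPM + 1) scale, which understates the change of low genes. Calls needed a fold change above 1.25 or below 0.8 and an adjusted p under 0.05, the interaction the adjusted p alone. TPM give no counting error, so the 3 libraries of a group set the precision. The tests were tested on simulated data.

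The members and lists were chosen with earlier results of these data known, so no p is given over a list. Named genes are the members called in any comparison, the thioredoxins, the reductases and the paired forms, with at most 3 called genes in each direction from each further list; values of other members were added after they were seen. Alternatives were another pseudocount, other filters, upper-quartile scaling, a replicate block, one fit of all libraries, the deposited log2 values, no fold change threshold, leaving out each library, and, added after the data were seen, median centring. Figures were drawn with matplotlib 3.10.9.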

Additional observations from a re-analysis of the deposited data

Results flagged for a closer look

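The genotype effect on *Glrx2* pointed in opposite directions at the temperatures, higher in every *Txnip*-/- library at RT and lower in every one at TN. The difference of the log2 fold changes was −0.20 (limma adjusted p = 0.358), so it did not pass the test. *Txnip* itself had a larger fall at TN than at RT, with a difference of −2.09 on the log2 scale (limma adjusted p = 0.00344). Groups of 3 libraries are too small for the outlier test, which was not run.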

How the results depend on the processing

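At RT the 1 called member became 0 with log2(TPM + 0.1), no filter on low values, a mean TPM of at least 5, a replicate block or median centring (added after the data were seen), and 0 to 0 with each library left out. At TN the 5 called members became 3 with no filter, 2 with the replicate block, 1 with the deposited log2 values and 7 with all 12 libraries in one fit, and 0 to 6 with each library left out. In WT the 11 members called between temperatures (all genes, 37.8%) became 18 with no fold change threshold (all genes, 50.3%). With each library left out they became 10 to 15 (all genes, 32.9% to 38.2%). The cause was not tested. The interaction had 0 called members under every alternative run. The mitochondrial minus cytosolic difference of medians was 0.019 at RT and −0.17 for TN over RT in WT when members with forms in more than 1 place were counted as mitochondrial. With each library left out it ran from −0.10 to −0.005 at RT, from −0.16 to −0.04 at TN and from −0.40 to −0.24 for TN over RT in WT. Among the genes recomputed under each setting, the signs that turned belonged to comparisons in which the gene was not called: *Txn2* at RT was −0.0156 with the deposited log2 values and −0.0034 with median centring, and with each library left out the log2 fold change at RT ran from −0.0641 to 0.0432 for *Glrx*, −0.1114 to 0.0120 for *Txnrd2*, −0.0036 to 0.0932 for *Txnrd1* and −0.0164 to 0.1149 for *Prdx1*, and at TN from −0.1215 to 0.0683 for *Prdx1* and −0.0844 to 0.0208 for *Prdx3*. Replicate numbers did not pair the libraries (correlations of same-numbered deviations 0.297, −0.022 and 0.210 at RT and 0.042, 0.023 and −0.036 at TN). Over all genes the block gave 100 calls at RT and 977 at TN, against 178 and 1116. The all-gene count became 44 at RT and 621 at TN with no filter, and at RT 101 with a mean TPM of at least 5. With all 12 libraries it became 272 at RT and 1133 at TN. At RT it was 31 and 2 without WT replicates 1 and 2, and 33, 87 and 25 without *Txnip*-/- replicates 1, 2 and 3. At TN it was 703 and 684 without WT replicates 1 and 3, and 456 and 464 without *Txnip*-/- replicates 1 and 2.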

Other observations

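Over the other pathway lists, TN against RT gave counts near those of all genes. In WT 32 of the 97 genes tested were called (33.0%), 28 higher and 4 lower, and in *Txnip*-/- 36 were (37.1%), 31 higher and 5 lower, beside 37.8% and 39.2% of all genes. The partners and further targets of *Nfe2l2* had 9 of 26 called higher in WT and 12 of 26 in *Txnip*-/-, and none lower, beside 31.4% and 30.9% of all genes called higher and 6.39% and 8.27% lower. The genes of NADPH supply had 3 of 17 higher and 1 lower in WT, and 3 higher and 2 lower in *Txnip*-/-. With median centring the shares of all genes were 15.4% higher and 14.7% lower in WT and 18.4% and 19.5% in *Txnip*-/-, and these lists were not counted again under it.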
